A study of Musa acuminata AAA Group with 4 samples.

Results

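Histone and cell division genes were taken from the transcripts that differed between low and normal potassium in banana. They are the genes whose deposited protein description names a histone, a cyclin, a cyclin-dependent kinase, a replication licensing factor, the proliferating cell nuclear antigen, a DNA polymerase, or a mitotic or cell division protein. The rule found 52 of the 5520 genes that the leaf and root tables list between them. The root table holds 49 of these 52 genes among its 4747, the leaf table holds 6 among its 1183, and 3 are in both.

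The plants were seedlings of Cavendish, a triploid dessert banana, kept for 60 days in complete Hoagland nutrient solution (normal potassium) or in a solution low in potassium. Leaves and roots were sequenced separately, with 1 library for each of the 4 combinations, and the labels do not say how many plants a library holds. Each library had between 4203693 and 4555265 fragments assigned to genes, as computed from the deposited values. Each fold below therefore compares 2 libraries with no replicate check, and its 95% interval covers counting error only.

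A plant cell that divides passes a first gap phase, copies its DNA in S phase, and separates the copies in mitosis after a second gap. Cyclins bind and activate cyclin-dependent kinases, and different cyclins act at different steps. Licensing factors load onto DNA as a ring-shaped helicase of MCM subunits before replication, and histones package the new DNA. In a root, most divisions take place in the meristem near the tip.

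In root, 47 of the 49 histone and cell division genes were lower in low potassium and 2 were higher. Over all genes of the root table, a share of 59.6% was lower and 40.4% higher. The 47 lower genes included genes of several steps of the cycle, from D-type cyclins through licensing and histones to mitotic cyclins and the spindle checkpoint. All 49 members, the 2 higher ones included, together took up 0.133% of all fragments in root at normal potassium, and 0.0591% at low potassium. In whole roots, fewer dividing cells and less of each transcript per cell cannot be told apart.

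The size of the difference was near that of other lower genes. The median fold of the lower members was 3.44-fold, and the median over all lower genes of the root table was also 3.44-fold, leaving out genes with no fragment in one library. The tables list only genes past the authors' limits of a 2-fold ratio and a false discovery rate of 0.001. Family members outside those limits were not analysed here, so the counts do not describe whole gene families. The members nearest the 2-fold limit in root were histone H2A (Ma03_g18800), 2.09-fold lower, and histone H2B.2-like (Ma02_g20900), 2.13-fold lower. The 95% interval lay wholly past 2-fold for 25 of the 47 lower members and for both higher ones. By this stricter rule, 36.2% of the genes of the whole table were lower and 24.8% higher. Genes with a count of 0, such as Ma02_g13560 in root, have no interval and are not counted as past 2-fold, here or in leaf. Past a log2 ratio of 2 there were 20 lower members and 2 higher ones, against 24.4% of the whole table lower and 14.6% higher. With 1 FPKM added to each level, 46 members stayed lower and 2 higher by the 2-fold limit, against 56.7% and 38.3% of the table.

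**Figure D1:**
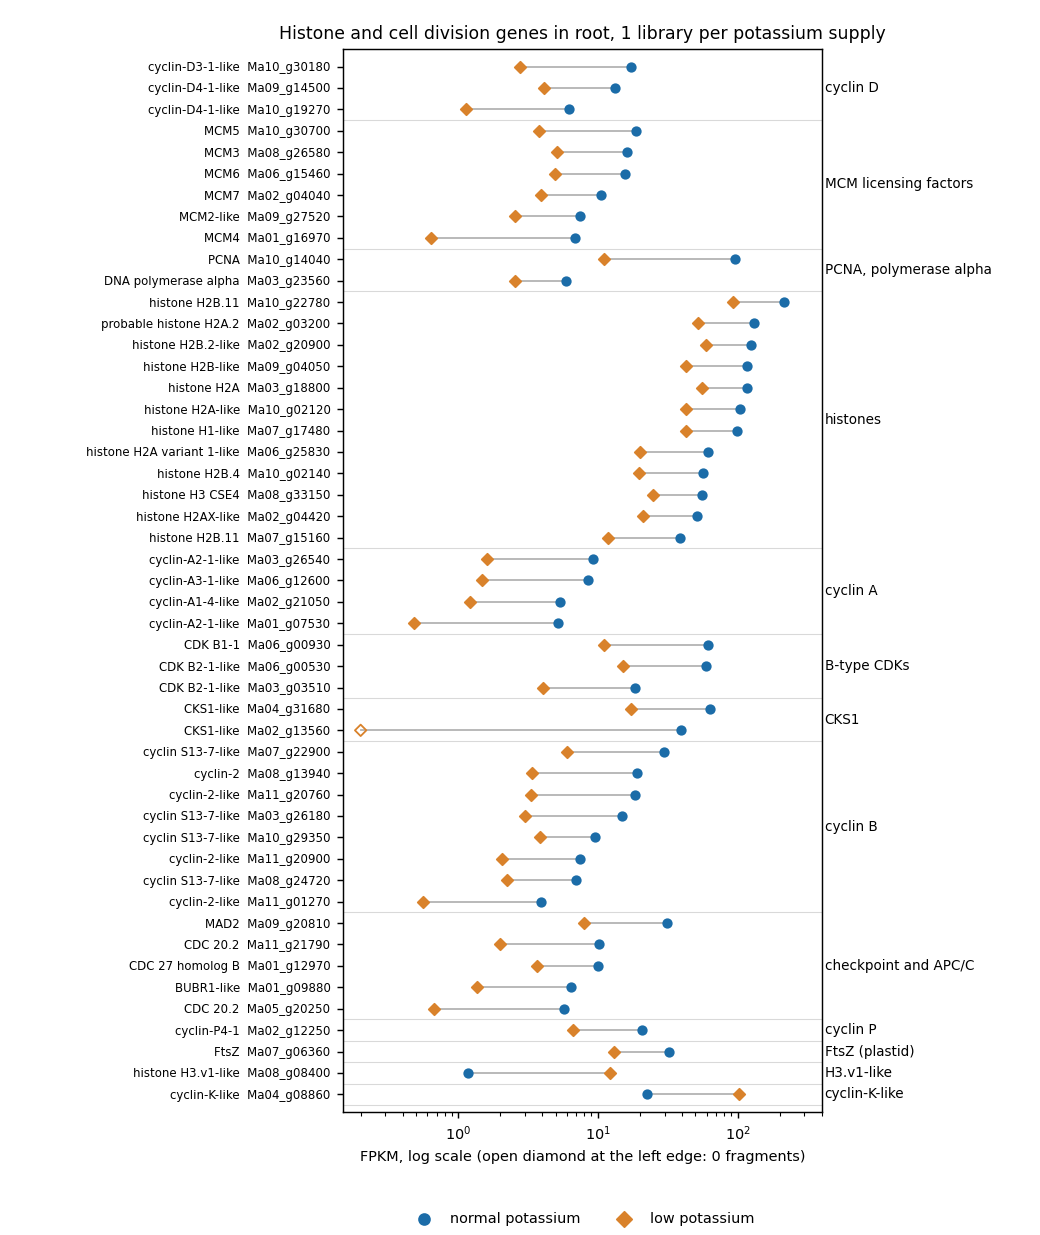
FPKM (fragments per kilobase of gene length, scaled to library depth) on a log scale for the 49 members in root, grouped by role, with a circle for the normal-potassium library and a diamond for the low-potassium library. In 47 members the diamond lies left of the circle, and the open diamond marks a gene with 0 fragments in low potassium.

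The D-type cyclins, which act at entry into the cycle in the first gap phase, were lower for all 3 listed genes in root. Cyclin-D3-1-like (Ma10_g30180) measured 17.3 FPKM in normal and 2.79 in low potassium, 6.20-fold lower (interval 3.37 to 12.6). Cyclin-D4-1-like Ma10_g19270 was 5.48-fold lower (6.19 and 1.13 FPKM, interval 2.10 to 18.1). The other cyclin-D4-1-like gene, Ma09_g14500, was 3.24-fold lower (13.3 and 4.10 FPKM, interval 1.91 to 5.86). The 3 intervals overlap, so counting error alone does not separate these genes from each other.

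Each of the 6 subunits of the MCM helicase ring, MCM2 to MCM7, had a gene in the root table, and all 6 were lower. MCM5 (Ma10_g30700) had the highest level, 18.8 FPKM in normal and 3.78 in low potassium, 4.98-fold lower (interval 3.45 to 7.36). MCM4 (Ma01_g16970) measured 6.85 and 0.64 FPKM, from 79 and 7 fragments, and was 10.7-fold lower (interval 4.96 to 27.5). The other 4 subunits lay close together at 2.69-fold to 3.22-fold lower. MCM3 (Ma08_g26580) measured 16.3 and 5.09 FPKM, and MCM6 (Ma06_g15460) measured 15.8 and 4.89. MCM7 (Ma02_g04040) measured 10.5 and 3.91 FPKM, and MCM2-like (Ma09_g27520) measured 7.44 and 2.56. The MCM4 interval does not overlap those of MCM2-like, MCM3, MCM6 or MCM7, which end at 4.51, 4.48, 4.48 and 4.04, and it does overlap that of MCM5. All 6 genes have whole fragment counts, so none shows fragments shared out with a similar gene.

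The proliferating cell nuclear antigen (Ma10_g14040) is the sliding clamp that holds DNA polymerases on the template. It measured 95.3 FPKM in normal and 11.0 in low potassium, 8.63-fold lower from 328 and 36 fragments (interval 6.10 to 12.5). At normal potassium it was the most abundant member outside the histones. The catalytic subunit of DNA polymerase alpha (Ma03_g23560), which works with primase to start new strands, was 2.32-fold lower (5.88 and 2.53 FPKM, interval 1.66 to 3.30). The intervals of the clamp and the polymerase do not overlap.

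Histones were the most abundant group. The rule caught 12 genes for linker and core histones, leaving out an H3.v1-like gene described below. They ranged from 38.4 to 216 FPKM at normal potassium and from 11.8 to 93.4 at low potassium. All 12 were lower, within a band of 2.09-fold to 3.26-fold, and their summed level went from 1173 to 486 FPKM. The band holds for these 12 only, since core histone genes outside the rule, described below, reached 5.03-fold lower. Of the other groups, the A-type and D-type cyclins and the B-type kinases ranged from 3.24-fold to 10.7-fold lower, above 11 of these 12 histones. The B-type cyclins ranged from 2.46-fold to 6.95-fold and overlapped the histone band. The licensing factors, from 2.69-fold, and the 5 genes that control the exit from mitosis, from 2.76-fold, overlapped it too. DNA polymerase alpha, at 2.32-fold, lay within it. The 12 histones had 95.5 to 589 fragments over both libraries and the B-type kinases 92.4 to 305, while the A-type and D-type cyclins had 34 to 90.7. A gene with few fragments needs a larger fold to be listed, and the part of this in the cyclin ratios was not tested.

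Histones H2A and H2B pair as dimers on the outside of the nucleosome core, and each had 5 genes in the root table. Of the H2B genes, histone H2B.11 (Ma10_g22780) was the most abundant member of all, with 216 FPKM in normal and 93.4 in low potassium (2.31-fold lower, interval 1.93 to 2.79). The second H2B.11 gene (Ma07_g15160) was the least abundant histone member, with 38.4 and 11.8 FPKM. It had the largest ratio of the histone members, 3.26-fold lower (interval 1.96 to 5.39). Histone H2B.2-like (Ma02_g20900) measured 126 and 59.1 FPKM, histone H2B-like (Ma09_g04050) measured 116 and 42.6, and histone H2B.4 (Ma10_g02140) measured 56.1 and 19.8. None of the 5 H2B genes has whole counts in both libraries, as happens where fragments are shared out among near-identical copies, so the split between copies is uncertain.

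Of the H2A genes, H2A.2 (Ma02_g03200) was the most abundant, with 132 and 52.3 FPKM (2.51-fold lower, interval 1.95 to 3.27). Histone H2A (Ma03_g18800) measured 116 and 55.6 FPKM, and H2A-like (Ma10_g02120) measured 104 and 42.8. Histone H2A variant 1-like (Ma06_g25830) measured 61.3 and 20.1 FPKM and had the largest ratio of the 5, 3.05-fold lower (interval 2.03 to 4.68). Histone H2AX-like (Ma02_g04420), of the variant that is phosphorylated at DNA breaks, measured 51.7 and 21.0 FPKM (2.46-fold lower, interval 1.66 to 3.69). All 5 H2A intervals overlap each other.

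The linker histone H1-like gene (Ma07_g17480), which binds DNA between nucleosomes, was 2.33-fold lower (99.6 and 42.7 FPKM, interval 1.95 to 2.81). A gene matched to a histone H3-like centromeric protein CSE4 (Ma08_g33150) was 2.24-fold lower (55.4 and 24.7 FPKM, interval 1.54 to 3.34). Its deposited KEGG name is plain histone H3, and its best match comes from a bean, so whether it codes for a centromeric or an ordinary H3 is not settled by the annotation.

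No member of the rule is a histone H4. The root table does hold 5 genes with the KEGG name histone H4, described only as a histone core, and 5 with the KEGG name histone H3, described as a hypothetical protein. These 10 genes were found after their values were seen, and all 10 were lower. The H4 genes, all 312 bases long, ranged from 2.07-fold to 4.86-fold lower, and their summed level went from 412 to 168 FPKM. The H3 genes, all 411 bases long like Ma08_g33150, ranged from 2.11-fold to 5.03-fold lower, with a summed level of 363 and 128 FPKM. Both ranges reach above the 3.26-fold upper end of the 12 histone members and into the range of the cyclins and B-type kinases. None of these 10 has whole counts in both libraries. With them, the linker histone and each of the 4 core histones had listed genes in root.

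A-type cyclins act in S phase and on into mitosis, and all 4 listed genes were lower. Cyclin-A2-1-like Ma03_g26540 measured 9.29 and 1.61 FPKM (5.77-fold lower, interval 3.03 to 12.1), and cyclin-A3-1-like (Ma06_g12600) measured 8.44 and 1.49 (5.66-fold lower, interval 2.52 to 14.9). The other cyclin-A2-1-like gene, Ma01_g07530, had the largest ratio of all members with fragments in both libraries. It was 10.7-fold lower, at 5.15 and 0.48 FPKM, but with 3 fragments in low potassium its interval runs from 3.38 to 54.6. Cyclin-A1-4-like (Ma02_g21050) measured 5.31 and 1.22 FPKM (4.35-fold lower, interval 1.89 to 10.4).

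B-type cyclin-dependent kinases are found in plants and are made around the entry into mitosis. All 3 listed genes were lower. Kinase B1-1 (Ma06_g00930) was 5.53-fold lower, at 61.4 and 11.1 FPKM (interval 3.97 to 7.86). The B2-1-like genes measured 59.1 and 15.0 FPKM (Ma06_g00530, 3.94-fold lower, interval 2.96 to 5.34) and 18.3 and 4.07 FPKM (Ma03_g03510, 4.50-fold lower, interval 2.60 to 8.26). All 3 intervals lie past 2-fold. None of the 3 has whole counts, so fragments may be shared among kinase copies.

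Cyclin-dependent kinases regulatory subunit 1, called CKS1, is a small protein that docks on the kinase. The copy Ma04_g31680 measured 63.7 and 17.2 FPKM in root (3.71-fold lower, interval 2.17 to 6.57). The copy Ma02_g13560 had 39.1 FPKM in normal-potassium root, from 43.8 fragments, and no fragment in low-potassium root. Against a floor of 3 fragments in that library Ma02_g13560 was at least 13.8-fold lower, with the normal-potassium count taken as exact. That count is not whole, so fragments may be shared out with a similar copy, as described below for leaf.

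Mitotic cyclins of B type made up 8 of the root members. Their descriptions read as cyclin-2 or cyclin S13-7 of the second gap and mitosis, and the deposited KEGG name of all 8 is cyclin B. All 8 were lower, by 2.46-fold to 6.95-fold, and their summed level went from 110 to 24.3 FPKM. The most abundant was S13-7-like Ma07_g22900, with 29.8 and 5.97 FPKM (4.99-fold lower, interval 3.44 to 7.42). Cyclin-2 Ma08_g13940 measured 19.0 and 3.35 FPKM (5.66-fold lower, interval 3.41 to 9.90), and cyclin-2-like Ma11_g20760 measured 18.3 and 3.32 (5.51-fold lower, interval 3.33 to 9.68). S13-7-like Ma03_g26180 measured 14.8 and 2.99 FPKM. The remaining 4 were below 10 FPKM in normal potassium. They were Ma10_g29350 (2.46-fold lower), Ma11_g20900 (3.62-fold lower), Ma08_g24720 (3.15-fold lower) and Ma11_g01270 (6.95-fold lower). The cyclins of A, B and D type together were 15 genes, all lower.

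Proteins that control the exit from mitosis were lower for all 5 listed genes. The spindle checkpoint delays chromosome separation until every chromosome is attached, and its target is the anaphase-promoting complex with its activator CDC20. The checkpoint gene MAD2 (Ma09_g20810) measured 31.4 and 7.89 FPKM (3.98-fold lower, interval 2.42 to 6.84), and BUBR1-like (Ma01_g09880) measured 6.44 and 1.36 (4.74-fold lower, interval 2.07 to 12.6). The CDC20.2-like genes measured 10.3 and 2.0 FPKM (Ma11_g21790, 5.13-fold lower, interval 2.75 to 10.4) and 5.72 and 0.67 FPKM (Ma05_g20250, 8.54-fold lower, interval 3.05 to 32.9). Cell division cycle protein 27 homolog B (Ma01_g12970), a subunit of the complex, measured 10.0 and 3.64 FPKM (2.76-fold lower, interval 1.86 to 4.17). So checkpoint components and the activator they hold back were listed in the same direction.

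**Figure D2:**
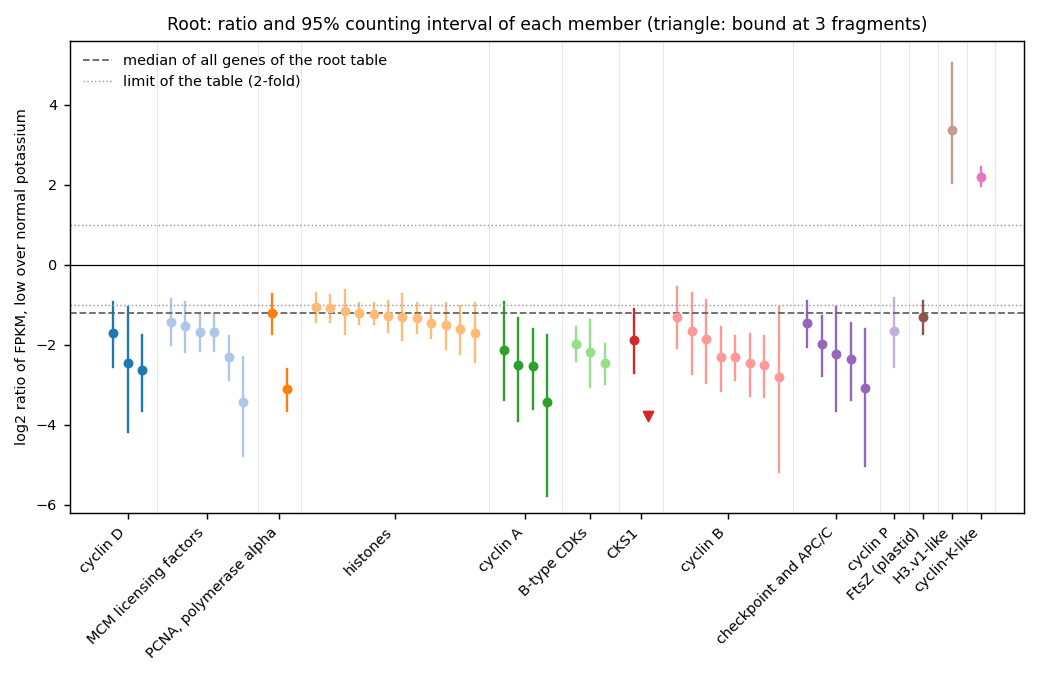
Log2 ratio of FPKM, low over normal potassium, of the 49 root members by role, with bars for the 95% counting interval, dotted lines at the 2-fold limit of the table and a dashed line at the median of all genes of the root table. The 12 histone members sit between 2.09-fold and 3.26-fold lower with short bars. The triangle is a bound against 3 fragments, and the H3.v1-like and cyclin-K-like genes stand above 0.

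Of the members caught by a word of the rule, 2 lower ones act outside the nuclear cycle or are less well placed in it. FtsZ homolog 1 (Ma07_g06360) forms the ring that divides plastids and is not a protein of cell division in plants. It was 2.48-fold lower (32.2 and 13.0 FPKM, interval 1.86 to 3.33). Cyclin-P4-1 (Ma02_g12250), of a plant cyclin class resembling a yeast cyclin of phosphate signalling, was 3.14-fold lower (20.9 and 6.65 FPKM, interval 1.77 to 5.88).

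In root 2 members were higher, and the KEGG annotation shares the name of neither. The cyclin-K-like gene (Ma04_g08860) measured 22.4 FPKM in normal and 103 in low potassium, 4.58-fold higher (interval 3.88 to 5.44). Its KEGG name is Wiskott-Aldrich syndrome protein, an actin regulator of animals. Cyclin K of animals serves transcription and not the cell cycle. The histone H3.v1-like gene (Ma08_g08400) measured 1.18 and 12.2 FPKM, 10.3-fold higher from 5 and 49 fragments (interval 4.14 to 33.2). It has no KEGG name, and its coding length of 969 bases is well above the 411 of the H3 genes. A lower member, cyclin-P4-1, has no KEGG name either, so this does not set the higher genes apart.

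In leaf, 4 of the 6 members were lower and 2 were higher, where 32.6% of the genes of the leaf table were lower and 67.4% higher. Both counts were the same with 1 FPKM added, where 29.1% of the table was lower and 64.5% higher. Past a log2 ratio of 2, 1 member was lower and 2 were higher, against 8.37% and 26.5% of the table. No A-type or D-type cyclin, no B-type kinase and no proliferating cell nuclear antigen gene is in the leaf table. Genes outside that table were not analysed here, so their leaf levels are not given. Their difference from root was not tested.

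The clearest counterpart of the root pattern was MCM3 (Ma08_g26580). Its leaf level was 7.56 FPKM at normal and 2.82 at low potassium (2.68-fold lower, interval 1.70 to 4.33), beside 16.3 and 5.09 FPKM in root. Both root libraries hold more of this transcript than the leaf library at the same potassium supply, and low potassium is the lower library in each tissue. Cyclin-B1-5-like (Ma00_g02400), with the KEGG name cyclin B, measured 5.02 and 0.95 FPKM in leaf (5.28-fold lower, interval 1.83 to 20.8), from 26 and 4 fragments. The intervals of both genes reach below 2-fold.

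The CKS1-like copies Ma02_g13560 and Ma02_g13600 appeared to move in opposite directions in leaf. Ma02_g13560 had 50 fragments in normal and 16.8 in low potassium (47.25 and 16.3 FPKM, 2.90-fold lower, interval 1.63 to 5.31). Ma02_g13600 had none in normal and 33.9 in low potassium, at least 11.6-fold higher against a floor of 3 fragments with the other count taken as exact. Both are 282 bases long and share the same best match in the protein database. Summed over both copies there were 50 fragments in normal and 50.8 in low potassium, a ratio of 1.04 (interval 0.693 to 1.57). The opposite directions therefore come with no detectable difference in the sum at this depth. In root, Ma02_g13600 is not listed, and the 13.8-fold bound of Ma02_g13560 could not be summed with it.

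The histone H3.v1-like gene listed in leaf, Ma05_g28720, is a different gene from the one in root. It measured 101.4 and 48.9 FPKM (2.07-fold lower, interval 1.70 to 2.54) and was the leaf member nearest the 2-fold limit. Its KEGG name is the zinc finger protein CONSTANS, so its place among histones rests on the description alone. The cyclin-K-like gene was 4.78-fold higher in leaf (2.45 and 11.7 FPKM, interval 2.85 to 8.45), beside 4.58-fold in root. Of the 6 leaf members it was the 1 whose interval lay wholly past 2-fold. By that rule, 39.2% of the genes of the whole leaf table were higher and 13.5% lower. The root levels of the cyclin-K-like gene were above its leaf levels at both potassium supplies.

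**Figure D3:**
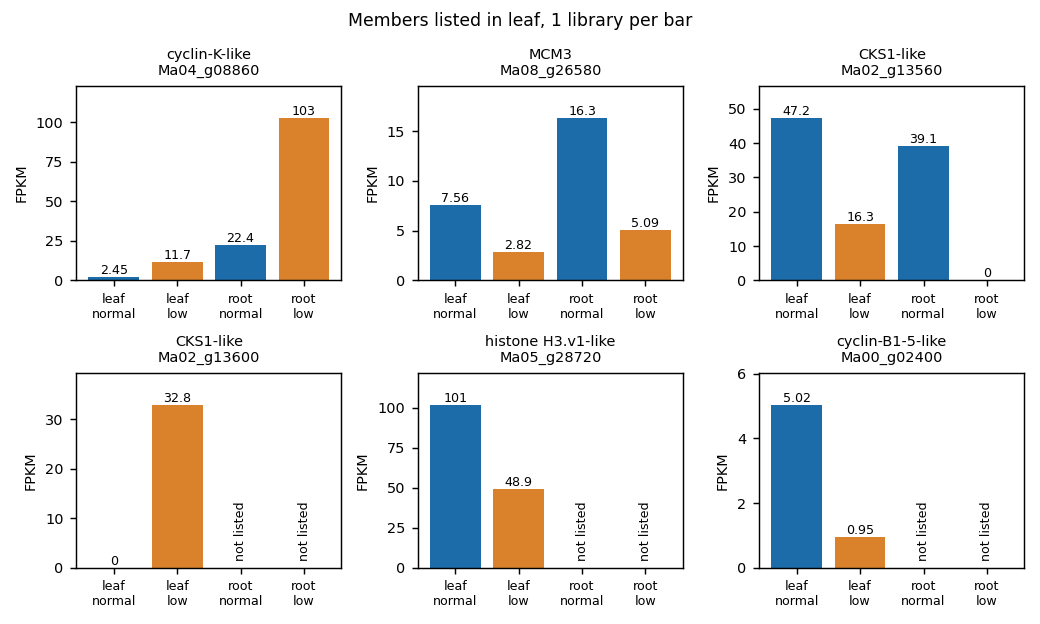
FPKM of the 6 members of the leaf table in each of the 4 libraries, with 1 bar per library and "not listed" where the root table lacks the gene. MCM3 is lower and the cyclin-K-like gene higher in low potassium in each tissue, and the CKS1-like copies mirror each other in leaf.

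Other genes of replication and division, from lists of protein names outside the rule, were lower in root for nearly all listed members. Of the whole root table, 59.6% was lower. All 14 DNA synthesis genes were lower, with a median log2 ratio of -1.64. The median of all genes of the root table, -1.20, takes in higher genes and is not a like comparison. Lower genes of the root table with fragments in both libraries had a median of 3.44-fold lower, a larger difference than that of this list. They included ribonucleoside-diphosphate reductase (Ma06_g22150), which makes deoxynucleotides, at 21.9 and 7.57 FPKM. CDT1-like (Ma02_g12500), which helps load the MCM ring, measured 16.2 and 6.91 FPKM. All 6 chromatin genes were lower (median log2 -2.15), among them the high mobility group B proteins Ma06_g15730, at 26.9 and 8.57 FPKM, and Ma00_g00580, at 14.4 and 2.88.

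In the mitosis and cytokinesis list 61 of 65 genes were lower (median log2 -1.91), and so were all 34 of its entries named kinesin, the microtubule motor family, which here includes a kinesin light chain and heavy chains that are not specific to mitosis. By the mean of both libraries, the 2 most abundant genes of that list were among the 4 that were higher. At normal potassium, patellin-3-like Ma09_g08240 (111 and 38.3 FPKM) and Ma02_g10010 (107 and 52.1) were above the second of them, and both were lower. The 2 were Ma05_g00330, at 116 and 380 FPKM, and formin-B-like (Ma03_g21730), an actin-related name, at 65.1 and 138. Ma05_g00330 is described as MAPK-interacting and spindle-stabilizing protein-like and entered the list by the word spindle. The cytokinesis syntaxin KNOLLE (Ma01_g17220), chosen after its values were seen, measured 78.3 and 13.1 FPKM (5.98-fold lower, interval 4.44 to 8.20). All 13 genes of the control list were lower (median log2 -2.31), and 8 of them are growth-regulating factors, plant transcription factors that promote cell proliferation. The most abundant, growth-regulating factor 6-like (Ma08_g27250), measured 152 and 17.9 FPKM (8.52-fold lower, interval 7.13 to 10.2). Next came another growth-regulating factor 6-like gene (Ma07_g28610), at 37.5 and 8.95 FPKM. Retinoblastoma-related protein (Ma08_g00460), which restrains entry into S phase and was chosen after its values were seen, was lower as well, at 15.6 and 7.02 FPKM.

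Ribosomal protein and tubulin lists had the same direction in root. Ribosomal proteins were lower for 133 of 135 genes, with a median log2 ratio of -1.26, and tubulin entries for 26 of 27, with a median of -1.96. The tubulin entries were matched by that word and include other proteins, such as a tubulin-folding cofactor and a tubulin kinase. Tubulin builds the spindle and the phragmoplast of dividing cells as well as the microtubules of other cells. Its most abundant genes, Ma08_g20020 (alpha-3 chain-like) and Ma02_g19010 (alpha-2 chain), measured 1945 and 784 FPKM and 1004 and 157 FPKM. The median of the 49 histone and cell division genes, -1.70, lay between them. In leaf, where 67.4% of the whole table was higher, 5 of the 6 listed mitosis and cytokinesis genes were higher (median log2 1.65). These 6 are formin-like genes, patellin-3-like genes and Ma05_g00330, the last at 35.9 and 135 FPKM. They entered the list by words of their names, and no kinesin or KNOLLE gene is listed in leaf. Both listed ribosomal protein genes and both tubulin genes were higher in leaf too, as was the DNA ligase 1 gene (Ma08_g20710), the 1 listed gene of the DNA synthesis list, at 47.6 and 103 FPKM. No gene of the chromatin or control lists is in the leaf table.

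Markers of root zones and of other tissue went in both directions in root, where 59.6% of the whole table was lower and 40.4% higher. Of the planned root meristem list, 14 of 19 genes were lower (median log2 -1.40), and the summed level was higher in low potassium (335 and 416 FPKM). Its AIL factors, relatives of the PLETHORA regulators of the root meristem, were lower for all 4 listed genes, with a summed level of 69.5 and 30.3 FPKM. Scarecrow-like genes, the rest of the meristem list, were lower for 10 of 15, near the share of the whole table, and their summed level was higher in low potassium (265 and 385 FPKM). The most abundant, scarecrow-like protein 1 (Ma10_g17350) and scarecrow-like protein 9 (Ma06_g36050), were higher, at 66.2 and 146 FPKM and at 24.9 and 88.9 FPKM. Of these 19 genes, scarecrow-like protein 32 (Ma06_g09430) had no fragment in low potassium. Expansins, cell wall proteins of elongating cells, were lower for 14 of 15, with a summed level of 480.2 and 129 FPKM. The most abundant were expansin-A11-like (Ma09_g24560), at 153 and 16.9 FPKM, and expansin-A4-like (Ma07_g23580), at 58.4 and 16.6. Expansin-A15-like Ma06_g33930 was at 0 in low potassium. Expansins belonged to a planned list of names of differentiating root, of which 14 of 17 genes were lower (median log2 -1.89). The other 2 genes of that list, casparian strip membrane protein-like genes that mark differentiated endodermis, went the other way. Ma03_g23720 was 7.93-fold higher, from 4 and 30 fragments (interval 2.80 to 31.0). Ma08_g07640 was 5.39-fold higher, from 10 and 51 fragments (interval 2.71 to 11.9). All 4 listed green tissue markers were higher in low-potassium root, at 30.1 and 108 FPKM in sum, with none at 0. They included an oxygen-evolving enhancer protein 1-like gene (Ma08_g03860), at 10.2 and 48.1 FPKM, and a rubisco activase-like gene (Ma02_g18190), at 13.4 and 27.2. In leaf all 8 listed green tissue markers were higher, at 389.95 and 1078 FPKM in sum, where 67.4% of the whole leaf table was higher. The part of root zones or green tissue in the result was not tested.

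**Figure D4:**
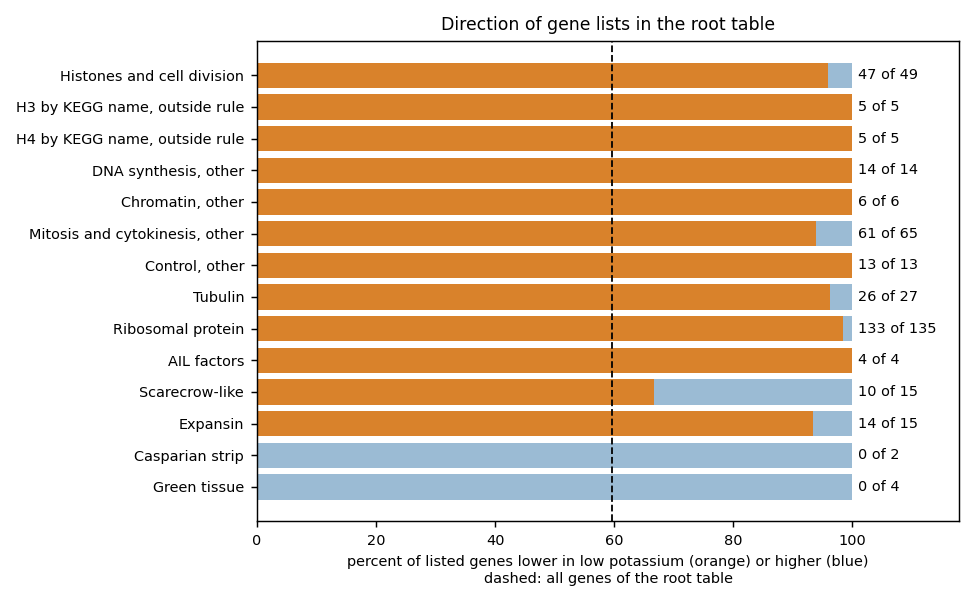
Percent of the listed genes of each list that were lower (orange) or higher (blue) in low-potassium root, with the counts at the right and a dashed line at 59.6%, the share over the whole root table. The replication and division lists lie at or near 100% lower, while the 2 Casparian strip and 4 green tissue markers are all higher. Expansins, of the same planned list as the Casparian strip genes, were lower for 14 of 15.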

How the data were processed

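Per the labels' protocols, mRNA was selected on oligo(dT) beads and random-primed after fragmentation. No step marks the strand, so reads of overlapping antisense genes are not separated. The authors deposited a table per tissue with estimated counts of fragments, which are not all whole, and FPKM values, which are 0.001 where the count is 0. The deposited log2 ratio equals that of the FPKM columns. The deposited p-value and FDR come from a test that is not given in the sources used here, as are the aligner, counting program and build. Lengths are the deposited gene lengths, read as coding lengths because 95.3% in leaf and 95.4% in root are multiples of 3. Some of the others are not whole numbers.

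Depth is the slope of count over FPKM against length, for genes above 100 fragments and 5 FPKM and within 1% of the line. Folds are FPKM ratios, and intervals are exact (Clopper-Pearson) binomial intervals of the rounded counts, computed with scipy 1.17.1 and tested on simulated data. With 1 library per group no test was possible within a tissue, and no test across tissues was run. Counts of 0 took a floor of 3 fragments in that library. Since PCR copies are not independent molecules, these limits cover no more than counting error.

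The members and lists were chosen with earlier results of these data known. Named genes are all leaf members, members in both tables, root members that were higher, all licensing and PCNA genes, the 2 nearest the limit per tissue, and per role class the 3 most abundant and the 3 with the largest ratio at 30 fragments or more. Of each related list, the 2 root genes with the highest mean FPKM of both libraries are named, except that ribosomal proteins are given as counts. The 4 other root members and further genes were named after their values were seen. Mitotic cyclins were joined by their KEGG name. Scarecrow-like genes entered the meristem list by name alone, and the split into AIL and scarecrow-like genes, the expansin, Casparian strip, kinesin and growth-regulating factor counts, and the removal of a false match to formin by letters came after values were seen.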

Additional observations from a re-analysis of the deposited data

How the results depend on the processing

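With 1 library per group no replicate could be left out. No paired analysis was possible because each group has 1 library and no replicate number. In root, 47 members were lower and 2 higher, with a median log2 ratio of -1.70. Adding 1 FPKM gave 46 lower and a median of -1.515. Whole fragment counts kept 27 members, 25 lower and 2 higher. A log2 limit of 2 left 20 lower and 2 higher (median -2.464). An interval past 2-fold kept 27 members, 25 lower and 2 higher (median -2.318). Without FtsZ and cyclin-K-like, 46 were lower and 1 higher (median -1.856). Leaving out members with no KEGG name or that of another family (cyclin-K-like, H3.v1-like and cyclin-P4-1), a setting chosen after seeing the data that removes both higher genes, gave 46 lower and 0 higher (median -1.873). In leaf, 4 were lower and 2 higher, with a median of -1.24. A log2 limit of 2 left 1 lower and a median of 2.257, and an interval past 2-fold left 0 lower, 1 higher and the same median of 2.257, since these settings keep few members. Whole counts left 1 higher, as did leaving out FtsZ and cyclin-K-like. By the KEGG setting, 1 was higher and the median was -1.48. The other settings, a mean of at least 1 FPKM and counts over library fragments, gave the same counts. Of the 51 folds of named members, none changed direction, and 2 moved past their interval or bound when 1 FPKM was added, both of CKS1-like genes with a count of 0.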

Other observations

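The KEGG name histone H3 is also attached in the root table to 6 genes whose protein descriptions name bHLH transcription factors. Their coding lengths run from 792 bases (Ma04_g17980) to 1572 bases (Ma06_g29530), against 411 for the H3 genes. Of these, 5 were lower, such as bHLH49-like Ma08_g25290 at 34.5 and 6.52 FPKM, and bHLH130-like Ma03_g10840 was higher at 9.17 and 27.3. They were left out of every histone count. An HMG-Y-related gene (Ma09_g29120), with the KEGG name histone H1/5, measured 15.9 and 4.90 FPKM and was left out too.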
